A study of Mus musculus with 9 samples.

Results

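The 39 protein-coding Hox genes of the mouse were followed in the open chromatin of lung endothelial cells, the cells that line blood and lymph vessels, at 3 ages. Members were all protein-coding genes of the GRCm38.p6 assembly (the mm10 build) whose symbol is Hoxa, Hoxb, Hoxc or Hoxd followed by a number, 39 of 21887 protein-coding genes. Of these, 11 lie in the Hoxa cluster on chromosome 6, 10 in the Hoxb cluster on chromosome 11, 9 in the Hoxc cluster on chromosome 15 and 9 in the Hoxd cluster on chromosome 2. The assay was ATAC-seq, in which a transposase cuts accessible stretches of DNA, on endothelial cells purified from whole lung by fluorescence-activated sorting. Infant, young adult and mature adult mice are each represented by 3 libraries. Nothing in the labels gives a strain, sex, genotype, treatment, age in days or sorting marker. All groups share the tissue, the cell type and the protocol. Whether the libraries of 1 age are from separate animals is also not stated, and p-values therefore measure the spread between these libraries, which may be technical.

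Hox genes encode transcription factors that share a DNA-binding homeodomain and specify position along the body axis of the embryo. Within a cluster the genes lie in the order of their paralogue numbers, and low numbers (anterior genes) are used nearer the head and earlier than high numbers (posterior genes). The clusters are classic targets of the Polycomb repressors, which keep them closed, and of trithorax activators, which keep them open, and many adult cells retain part of the pattern of their place of origin. In the lung, paralogue groups up to the centre of the clusters are the ones known to be used, and Hoxa5 is needed for normal airway and lung development. Endothelial cells in culture are known to express several Hox genes. Among them are Hoxa3, Hoxb3 and Hoxd3, which have been linked to vessel growth, and Hoxa5, which has been linked to vessel quiescence.

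Each library is represented by a list of peaks, with no height, score or read number, so sequencing depth is unknown and the absence of a peak does not show closed chromatin. The infant lists were longer, with 88856 to 94646 distinct peaks, against 67550 to 68366 in young adult and 59793 to 64208 in mature adult libraries. Infant lists thus held 1.34 times as many peaks as young adult and 1.46 times as many as mature adult lists on average, and covered 1.41 and 1.55 times as many bases. Every Hox value below is read against that difference. Young adult 3 and mature adult 1 often had the lowest Hox values of their ages. The ratios of all Hox peaks and of covered bases, and the numbers of Hox genes called, are also given without them. Sums of peaks by cluster and by position, promoter counts and covered shares of single genes are not. All 10 endothelial markers had peaks in every library, 217 to 230 in sum in infant, 188 to 206 in young adult and 171 to 201 in mature adult libraries. The 11 fibroblast and mural markers summed to 88 to 94 peaks in infant, 33 to 36 in young adult and 30 or 31 in mature adult libraries, an infant mean 3.02 times the mature adult mean, and Tbx5 and Dcn were at 0 in all mature adult libraries. The 8 epithelial markers summed to 19 to 24 peaks in infant and 11 to 16 in adult libraries, with the surfactant gene Sftpc at 0 throughout, and the 7 leukocyte markers to 9 or 10 in infant and 7 to 13 in adult libraries, with Cd68, Lyz2 and Itgam at 0 throughout. The 5 lymphatic markers summed to 30 to 32 peaks in infant and 20 to 22 in adult libraries, with Pdpn at 0 throughout. The fibroblast and mural markers therefore moved in the same direction as the Hox genes described next, and their part in those results was not tested.

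Hox genes had fewer peaks in the adult lists, in each of the 4 clusters. Each peak was counted for the gene that contains its centre or, failing that, for the closest gene up to 100 kb away. Together the 39 genes held 105, 99 and 93 peaks (infant), 74, 70 and 53 peaks (young adult) and 47, 59 and 60 peaks (mature adult). The means were 99.0 ± 6.0 (SD, n = 3), 65.7 ± 11.2 and 55.3 ± 7.23. Infant values did not overlap adult values, whereas young and mature adult values overlapped. The infant mean was 1.51 times the young adult and 1.79 times the mature adult mean, against 1.34 and 1.46 times for the whole lists. Scaled to the length of each list, these ratios came to 1.12 and 1.23, and with the same number of widest peaks taken from every list they were 1.07 and 1.12. Without young adult 3 and mature adult 1 the unscaled ratios were 1.38 and 1.66. Between 7 and 12 of these peaks per library lay more than 10 kb from the gene they were given to, and the others lay inside a Hox gene or within 10 kb of one.

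**Figure D1:**
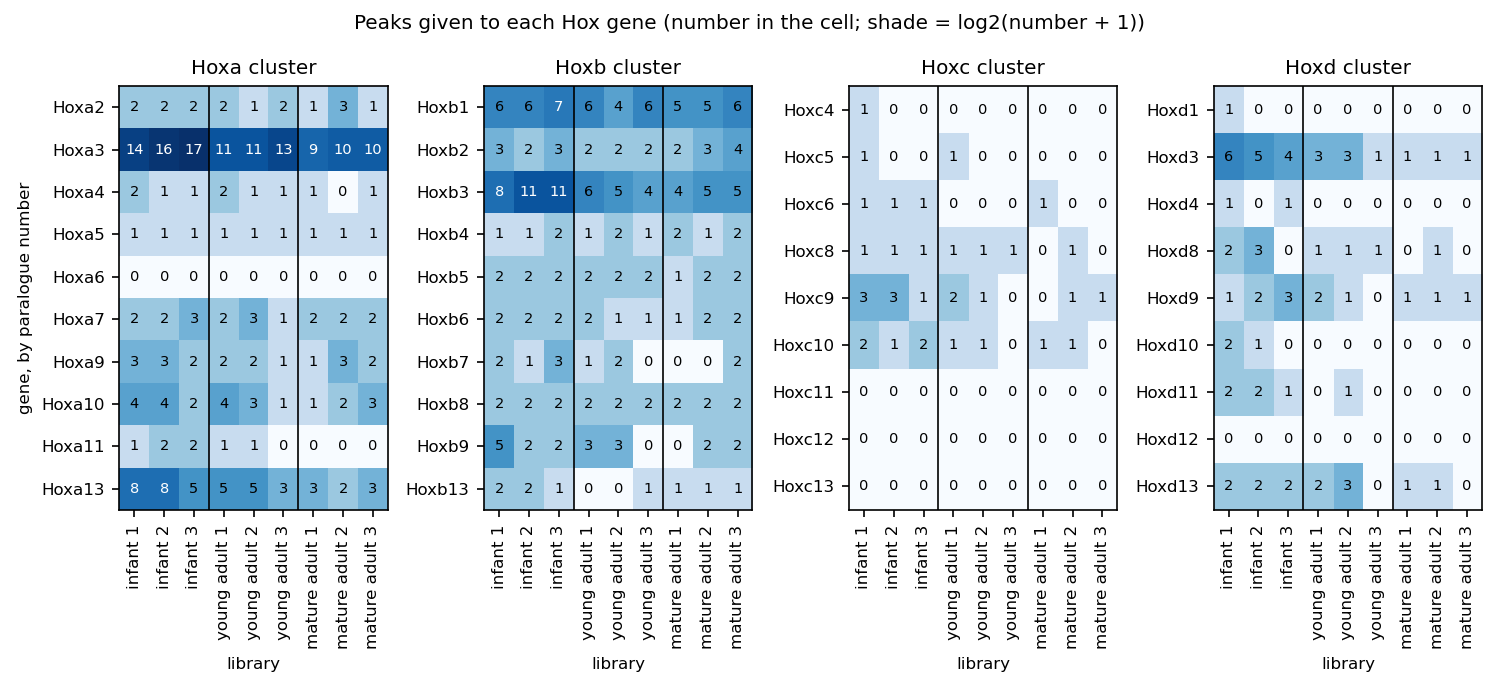
Number of distinct peaks given to single Hox genes (rows, ordered by paralogue number within each cluster) in each of the 9 libraries (columns); the number is printed in the cell and the shade shows log2(number + 1). Hoxa3 carried the most peaks, 14 to 17 in infant and 9 or 10 in mature adult libraries, Hoxa5 and Hoxb8 had the same number in all libraries, and the Hoxc and Hoxd panels are largely at 0 in the mature adult columns.

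The clusters differed in how much signal they carried and in how far apart the ages stood. Hoxa genes held 46, 47 and 42 peaks in infant, 36, 35 and 31 in young adult and 24, 29 and 29 in mature adult libraries. Hoxb genes held 33, 31 and 35 in infant, 25, 23 and 19 in young adult and 18, 23 and 28 in mature adult libraries. For both clusters the infant libraries stood above all adult ones, with infant means 1.65 (Hoxa) and 1.44 (Hoxb) times the mature adult means. Whole infant lists were 1.46 times as long as mature adult lists, so the Hoxb ratio did not exceed that of the lists. Of all peaks given to a gene, Hoxb held 0.0395% in infant and 0.0398% in mature adult libraries. The Hoxa share was 0.0539% in infant and 0.0475% in mature adult libraries. Hoxc genes held 9, 6 and 5 peaks in infant, 5, 3 and 1 in young adult and 2, 3 and 1 in mature adult libraries, so that infant 3 and young adult 1 were equal. Hoxd genes held 17, 15 and 11 in infant, 8, 9 and 2 in young adult and 3, 4 and 2 in mature adult libraries, without overlap between infant and adult. The infant means of these 2 clusters were 3.33 (Hoxc) and 4.78 (Hoxd) times the mature adult means. A mean of 3.0 Hoxd peaks and 2.0 Hoxc peaks remained in mature adult libraries, against 27.3 Hoxa and 23.0 Hoxb peaks.

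The share of bases inside a peak does not depend on how peaks are given to genes. By the ratio of infant to mature adult, Hoxd and Hoxc again stood above Hoxb and Hoxa. The Hoxa window, from the lowest to the highest gene end (chr6:52155367-52260880), was covered to 17.9%, 16.8% and 14.5% in infant, 14.5%, 13.4% and 10.0% in young adult and 8.75%, 12.9% and 10.5% in mature adult libraries. The Hoxb window (chr11:96194316-96368254) was covered to 10.7%, 9.80% and 8.23% in infant, 6.60%, 6.81% and 3.90% in young adult and 3.43%, 6.14% and 5.61% in mature adult libraries. Infant and adult libraries did not overlap in Hoxb, and in Hoxa infant 3 lay just under young adult 1. The Hoxc window (chr15:102921131-103036856) was covered to 3.44%, 2.23% and 0.910% in infant, 0.960%, 1.03% and 0.137% in young adult and 0.329%, 0.511% and 0.342% in mature adult libraries. The Hoxd window (chr2:74668225-74765142) was covered to 8.30%, 6.41% and 3.97% in infant, 2.62%, 3.02% and 0.469% in young adult and 0.871%, 1.11% and 0.671% in mature adult libraries. Hoxd thus had no overlap between infant and adult, while in Hoxc infant 3 fell among the young adult libraries. The infant mean was 1.53 times the mature adult mean in Hoxa and 1.89 times in Hoxb, against 1.55 times for all bases covered in the genome, and it was 5.57 times in Hoxc and 7.04 times in Hoxd. With the same number of widest peaks in every list the 4 ratios were 1.24, 1.72, 4.64 and 5.25. These sums over chosen genes carry no test. Without young adult 3 and mature adult 1 the 4 ratios were 1.41, 1.63, 5.14 and 6.99. The difference between clusters was not tested.

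**Figure D2:**
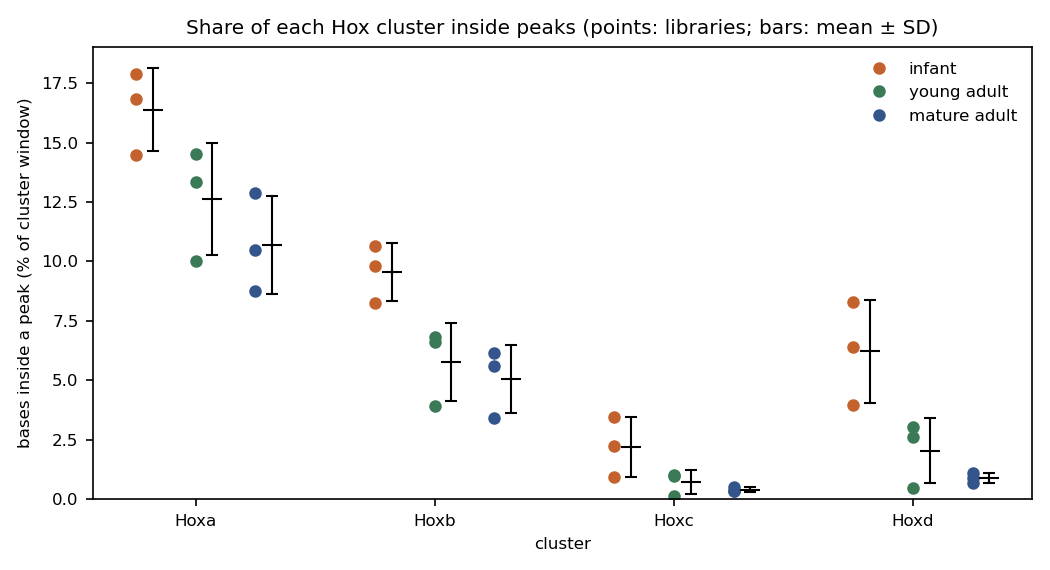
Percent of the bases of each Hox cluster window that lie in a peak (vertical axis) by cluster and age; points are the 9 libraries and bars the mean ± SD of 3. Coverage in Hoxd is 3.97% to 8.30% in infant and 0.671% to 1.11% in mature adult libraries, while Hoxa keeps 8.75% to 12.9% in mature adult libraries.

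By paralogue position, the anterior genes (groups 1 to 3, 8 genes) held most peaks per gene at every age, without regard to gene length. Hoxa3, Hoxb3 and Hoxd3 span 44009, 40830 and 36279 bp and enclose central genes, so regions between central genes can count as anterior. The 5 or 6 Hoxb1 peaks in mature adult libraries all lay outside its body. How far the anterior and group 3 numbers follow from gene length and this assignment was not tested. They summed to 49, 50 and 51 peaks in infant, 36, 33 and 36 in young adult and 27, 33 and 33 in mature adult libraries, without overlap between infant and adult and with an infant mean 1.61 times the mature adult mean. The central genes (groups 4 to 8, 15 genes) summed to 21, 17 and 19 in infant, 16, 16 and 11 in young adult and 11, 12 and 14 in mature adult libraries, again without overlap between infant and adult, and with a ratio of 1.54. The posterior genes (groups 9 to 13, 16 genes) summed to 35, 32 and 23 in infant, 22, 21 and 6 in young adult and 9, 14 and 13 in mature adult libraries, with a ratio of 2.50. The infant libraries also stood above all adult ones here, by a single peak between infant 3 and young adult 1. Whole infant lists were 1.46 times as long as mature adult lists. Of all peaks given to a gene, central genes held 0.0227% in infant and 0.0214% in mature adult libraries. These shares were 0.0599% and 0.0538% for anterior, and 0.0358% and 0.0208% for posterior genes. Within the Hoxa cluster the ratio was 1.51 for the 3 anterior, 1.27 for the 4 central and 2.20 for the 4 posterior genes. In the Hoxd cluster it was 5.33 for the 2 anterior and 4.00 for the 5 posterior genes, so a larger ratio at posterior genes was not seen there. Of the single paralogue groups, group 3 (Hoxa3, Hoxb3 and Hoxd3) held the most peaks, 28, 32 and 32 in infant, 20, 19 and 18 in young adult and 14, 16 and 16 in mature adult libraries. Group 11 held 3, 4 and 3 in infant, 1, 2 and 0 in young adult and 0 in all mature adult libraries, and group 12 held none at any age.

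**Figure D3:**
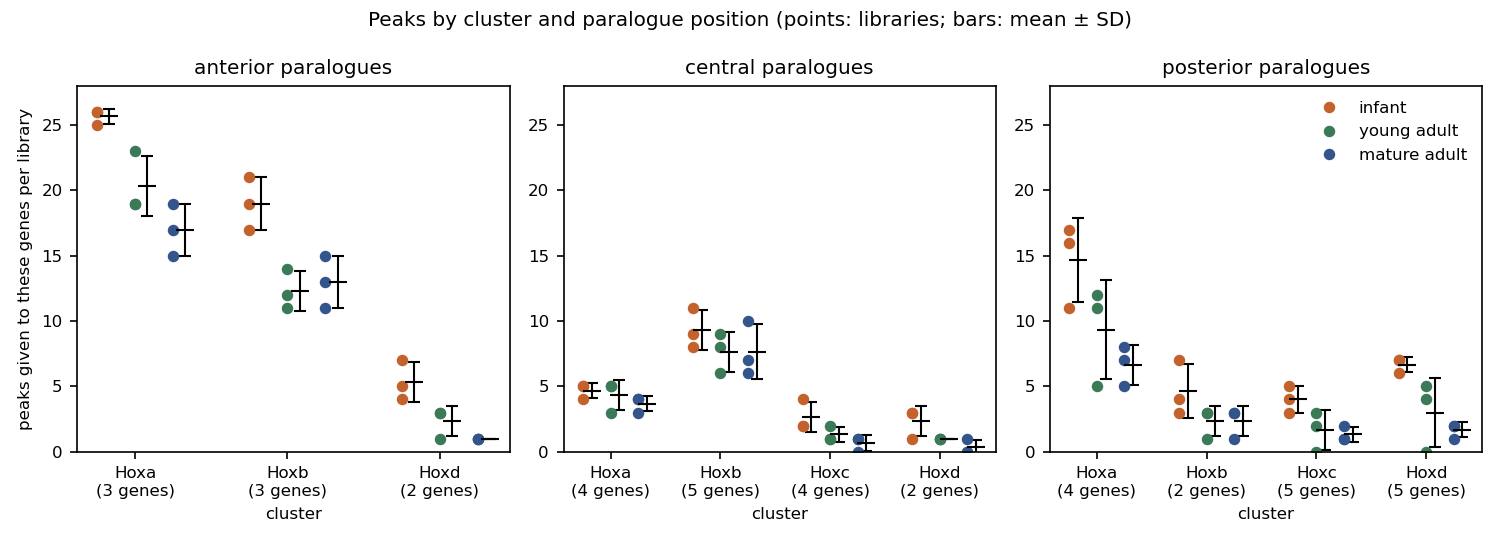
Peaks given to the anterior, central and posterior genes of each cluster (panels by position, clusters along the horizontal axis with the number of genes); points are libraries and bars the mean ± SD of 3. The anterior Hoxa genes lead at 25 or 26 peaks in infant and 15 to 19 in mature adult libraries, and the posterior Hoxd genes have 6 or 7 in infant and 1 or 2 in mature adult libraries.

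Among the Hox promoter windows at hand, which leave out most Hoxb and Hoxc genes, those with a peak in every library were of 3 Hoxa genes. RefSeq windows from 250 bases before to 50 after a transcription start (GRCm38.p6) were at hand for 22 of the 39 Hox genes, 24 windows in all. Of these, 10 belong to Hoxd, 10 to Hoxa, 3 to Hoxb and 1 to Hoxc genes. The windows therefore do not show whether other Hoxb starts had a peak at all ages. Hoxb5 has no window, and a region at that gene (chr11:96303106-96304409) had a peak in all 9 libraries. A peak overlapped 12, 10 and 9 of the 24 windows in infant, 6, 6 and 4 in young adult and 4, 6 and 4 in mature adult libraries. On average 43.1% of the Hox windows were covered in infant and 19.4% in mature adult libraries, against 57.8% and 51.2% of all 21263 promoter windows. The windows of Hoxa2, Hoxa3 and Hoxa5 had a peak in all 9 libraries, 12.5% of the Hox windows, against 49.0% of all promoter windows. The windows of Hoxa13 and Hoxd13, the most posterior genes of their clusters, had a peak in all infant and no mature adult libraries, against 3.99% of all promoter windows. Among the 10 Hoxd windows a peak was found in 6, 4 and 2 in infant, 2, 2 and 0 in young adult and 1, 1 and 0 in mature adult libraries, so that infant 3 did not exceed young adult 1 and 2. No library had a peak at 10 of the 24 windows, 41.7% against 39.9% of all windows.

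The bases before the start are shown for the members that the following results turn on, on the gene's strand, with letters that matched a searched motif in capitals. The 50 bases after the start were searched but are not shown. Hoxa2 (chr6:52164832-52165081, minus strand) and Hoxa3 (chr6:52213068-52213317, minus strand) had a peak at the window in every library, as had Hoxa5 (chr6:52204588-52204837, minus strand). Hoxa13 (chr6:52260881-52261130, minus strand) had one in the 3 infant libraries only, Hoxd3 (chr2:74711743-74711992, plus strand) in infant 1 only and Hoxb8 (chr11:96281655-96281904, plus strand) in none.
Hoxa2: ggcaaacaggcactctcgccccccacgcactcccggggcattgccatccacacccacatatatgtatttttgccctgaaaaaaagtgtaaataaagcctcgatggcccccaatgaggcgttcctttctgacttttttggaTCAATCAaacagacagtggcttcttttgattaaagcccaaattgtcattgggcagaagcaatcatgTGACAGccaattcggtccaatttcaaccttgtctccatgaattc
Hoxa3: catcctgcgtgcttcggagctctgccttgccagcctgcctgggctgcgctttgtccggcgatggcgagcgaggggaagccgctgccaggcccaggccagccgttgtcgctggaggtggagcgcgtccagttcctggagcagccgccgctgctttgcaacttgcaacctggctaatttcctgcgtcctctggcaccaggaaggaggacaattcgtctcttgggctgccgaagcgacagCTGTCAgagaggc
Hoxa5: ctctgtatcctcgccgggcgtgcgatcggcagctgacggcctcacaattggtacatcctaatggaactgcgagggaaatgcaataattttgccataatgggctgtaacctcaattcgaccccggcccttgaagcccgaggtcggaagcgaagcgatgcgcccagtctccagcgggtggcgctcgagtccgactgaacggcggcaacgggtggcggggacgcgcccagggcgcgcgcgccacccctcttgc
Hoxa13: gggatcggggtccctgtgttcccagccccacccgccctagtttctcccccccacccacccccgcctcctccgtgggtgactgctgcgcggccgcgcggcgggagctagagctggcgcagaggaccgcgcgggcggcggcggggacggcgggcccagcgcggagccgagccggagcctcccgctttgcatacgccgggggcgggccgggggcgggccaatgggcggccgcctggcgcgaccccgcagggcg
Hoxb8: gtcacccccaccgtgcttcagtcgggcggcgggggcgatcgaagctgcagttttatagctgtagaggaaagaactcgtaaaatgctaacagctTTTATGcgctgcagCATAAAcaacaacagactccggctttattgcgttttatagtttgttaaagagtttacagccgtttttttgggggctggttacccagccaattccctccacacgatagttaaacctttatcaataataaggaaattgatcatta
Hoxd3: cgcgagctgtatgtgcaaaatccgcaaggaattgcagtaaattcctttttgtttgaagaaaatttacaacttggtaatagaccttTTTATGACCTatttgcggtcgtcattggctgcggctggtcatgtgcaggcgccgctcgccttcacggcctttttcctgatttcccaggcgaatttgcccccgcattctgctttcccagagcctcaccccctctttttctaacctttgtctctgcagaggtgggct
The motifs were searched as exact letters on both strands of the whole window. TGATTGA, the joint site of a PBX and a HOX protein, is in the windows of Hoxa2, Hoxb1 and Hoxd11 and in 2.54% of all promoter windows. TGACAG, the site of MEIS proteins, is in those of Hoxa2 and Hoxa3 and in 18.7% of all. TTTATG, bound by the caudal factors CDX, is in those of Hoxa7, Hoxb8, Hoxd3, Hoxd4 and Hoxd11 and in 9.71% of all. AGGTCA, a site of nuclear receptors such as those for retinoic acid, is in those of Hoxa5, Hoxb4, Hoxc4, Hoxd3, Hoxd4, Hoxd8 and Hoxd10 and in 14.7% of all. In Hoxd3 the CDX and nuclear receptor letters overlap, which joins them into 1 run of capitals, and in Hoxa5 the match lies after the start and is not shown. CCGGAAG, the site of ETS factors, which are abundant in endothelium, is in none of the 24 windows and in 11.6% of all. Hoxa13 has no match and is the richest in CG, with 45 CG pairs in its window against a median of 13 over all promoter windows and 14.5 over the Hox windows.

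The test of single genes was made on the number of peaks per gene, as log2(number + 0.5) with limma over all 9 libraries and adjustment over all genes tested, once with numbers scaled to the length of each list and once unscaled. The 14510 genes that averaged 1 peak or more per library were tested, among them 25 Hox genes. Because the infant lists were longer, a gene could reach this minimum more readily through infant than through adult peaks. On scaled numbers, mature adult against infant, 2 Hox genes were called higher (Hoxa5 and Hoxb8) and 1 lower (Hoxd3), against 30.4% called higher and 13.9% called lower among all genes. On unscaled numbers none was called higher, also at an unadjusted p under 0.05, and 5 lower, among them Hoxa3, Hoxa13, Hoxb3 and Hoxd3, against 1.42% and 29.3% of all genes. For young adult against infant the scaled numbers gave the same 2 higher and none lower, against 26.1% and 9.33% of all genes. At an unadjusted p under 0.05, 2 Hox genes were lower there. The unscaled numbers gave none higher, also at an unadjusted p under 0.05, and 2 lower (Hoxa3 and Hoxb3), against 1.1% and 17.4%. Between mature and young adult libraries limma called no Hox gene on either scale, against 0.179% higher and 0.758% lower of all genes on scaled and 0.103% and 0.841% on unscaled numbers. At an unadjusted p under 0.05 that comparison had 3 Hox genes higher and none lower on scaled numbers, and 1 lower and none higher on unscaled numbers. Shares of all genes at an unadjusted p are not given, so counts at that threshold have no background. The median change of the 25 genes between infant and mature adult was -0.14 on scaled numbers, against 0.14 over all genes, and -0.65 on unscaled numbers, against -0.31. The comparisons with infant share the infant libraries.

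Hoxd3 was the Hox gene that fell on both scales. It held 6, 5 and 4 peaks in infant, 3, 3 and 1 in young adult and 1, 1 and 1 in mature adult libraries. Every infant library stood above every adult library, and young adult 3 had the level of the mature adult libraries. On scaled numbers Hoxd3 fell by 1.42 on the log2 scale between infant and mature adult (SE 0.32, limma adjusted p = 0.00988). On unscaled numbers it fell by 1.86 (SE 0.34, adjusted p = 0.00859). Among all genes 13.9% were called lower on both scales. The young adult libraries did not pass the test against infant (scaled change -0.67, adjusted p = 0.153), nor did mature adult against young adult (-0.74, adjusted p = 0.242). Without young adult 3 the latter was called lower. With the same number of widest peaks in each list the change from infant to mature adult was -1.06 and missed the threshold (adjusted p = 0.0663). Peaks covered 3.45% ± 0.90 (SD, n = 3) of the Hoxd3 body in infant, 1.70% ± 0.94 in young adult and 0.798% ± 0.077 in mature adult libraries. The peak that every library kept (chr2:74715687-74716302, inside the gene) was 616, 570 and 514 bp wide in infant, 362, 431 and 304 in young adult and 260, 315 and 294 in mature adult libraries. It was the single region of the Hoxd cluster with a peak in all 9 libraries. A second region, chr2:74749579-74750246 outside the gene, had a peak in all infant and no adult libraries, and the region just after the printed Hoxd3 sequence, chr2:74712015-74712538, had one in the 3 infant libraries and in young adult 1 and 2.

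The other members of paralogue group 3 fell on unscaled numbers. Hoxa3 held 14, 16 and 17 peaks in infant, 11, 11 and 13 in young adult and 9, 10 and 10 in mature adult libraries, without overlap between infant and adult. On unscaled numbers it fell by 0.41 on the log2 scale to young adult (SE 0.10, limma adjusted p = 0.0300) and by 0.67 to mature adult (SE 0.10, adjusted p = 0.00340). On scaled numbers the change to mature adult was -0.14 and did not pass the test (adjusted p = 0.328). Hoxb3 held 8, 11 and 11 peaks in infant, 6, 5 and 4 in young adult and 4, 5 and 5 in mature adult libraries, again without overlap between infant and adult. On unscaled numbers it fell by 0.93 to young adult (SE 0.18, adjusted p = 0.0163) and by 1.02 to mature adult (SE 0.18, adjusted p = 0.00790). On scaled numbers the changes were -0.54 and -0.51 and missed the threshold (adjusted p = 0.0573 and 0.0589). The scaled change to mature adult passed without infant 1 (adjusted p = 0.0180) and without young adult 3 (0.0440), and that to young adult passed without infant 1 (0.0167) and without young adult 1 (0.0355). Without any other single library they did not pass (up to 0.164 and 0.157), nor with the same number of widest peaks in each list (adjusted p = 0.486 and 0.364). Both genes are long, 44009 and 40830 bp, and enclose other members, whose peaks were given to the shorter gene.

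Among the posterior genes, Hoxa13, which patterns the limb ends and the hindgut and urogenital tract, fell on unscaled numbers. It held 8, 8 and 5 peaks in infant, 5, 5 and 3 in young adult and 3, 2 and 3 in mature adult libraries, so infant and mature adult did not overlap while infant 3 equalled 2 young adult libraries. On unscaled numbers it fell by 1.23 on the log2 scale to mature adult (SE 0.27, limma adjusted p = 0.0164). On scaled numbers the change was -0.74 (SE 0.26, adjusted p = 0.0518), which passed without infant 3 (adjusted p = 0.0317) and without young adult 3 (0.0310) and did not pass without any other single library (up to 0.148). With the same number of widest peaks in each list it was -0.09 (adjusted p = 1.0). The Hoxa13 body was covered to 27.3% ± 20.8 in infant libraries, where infant 3 lacked the wide peak of the other two, and held no peak base in any adult library. The group 11 genes were too low for the main test. Hoxa11 held 1, 2 and 2 peaks in infant, 1, 1 and 0 in young adult and 0 in all mature adult libraries, and Hoxd11 2, 2 and 1, then 0, 1 and 0, then none. With no minimum on the number, which takes in 17333 genes and 34 Hox genes, limma called both lower in mature adult than in infant on scaled numbers (adjusted p = 0.0149 for Hoxa11 and 0.0139 for Hoxd11), together with Hoxd3, against 15.2% called lower and 25.3% called higher among all genes. Hoxa11 and Hoxd11 entered that fit only through their few infant and young adult peaks, so these 2 calls give no separate support.

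Hoxd13, Hoxd9 and Hoxc9 also had their widest peaks in infant libraries and did not pass the test. Hoxd13 held 2, 2 and 2 peaks in infant, 2, 3 and 0 in young adult and 1, 1 and 0 in mature adult libraries (scaled change -0.91, limma adjusted p = 0.395). Its start carried a peak of 824, 812 and 776 bp in infant and of 669 and 364 bp in young adult 1 and 2, and none in the other 4 libraries. Hoxd9 held 1, 2 and 3 peaks in infant, 2, 1 and 0 in young adult and 1, 1 and 1 in mature adult libraries. Peaks covered 34.0% ± 12.7 of its body in infant, 14.6% ± 12.6 in young adult and 5.02% ± 5.49 in mature adult libraries. Hoxc9, with the most peaks of its cluster, held 3, 3 and 1 in infant, 2, 1 and 0 in young adult and 0, 1 and 1 in mature adult libraries (scaled change to mature adult -1.01, adjusted p = 0.308). No Hoxc region had a peak in all 9 libraries.

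Hoxa5 and Hoxb8 had the same number of peaks in every library, 1 for Hoxa5 and 2 for Hoxb8. Their calls as higher in both adult ages (Hoxa5 by 0.36 and Hoxb8 by 0.44 on the scaled log2 scale in mature adult, limma adjusted p = 0.000121 and 0.000341) come from dividing an equal number by a shorter list, and on unscaled numbers both changes are 0. The same holds for 2280 genes in the whole table, which make up 51.7% of all genes called higher in mature adult libraries on scaled numbers. The Hoxa5 peak (chr6:52203400-52204797), over the start and the body of the gene, was 1171, 1170 and 1001 bp wide in infant, 1359, 1384 and 1346 in young adult and 995, 1157 and 1182 in mature adult libraries. It was thus widest in the young adult libraries, and infant and mature adult overlapped. The Hoxb8 body peak, chr11:96284094-96285040, was 945, 861 and 629 bp wide in infant, 609, 598 and 162 in young adult and 230, 461 and 182 in mature adult libraries, without overlap between infant and adult. Neither peak of Hoxb8 touched the promoter window printed above.

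The following Hoxa and Hoxb genes did not pass the test on either scale with all 9 libraries. Hoxb1 held 6, 6 and 7 peaks in infant and 5, 5 and 6 in mature adult libraries, and Hoxb2 3, 2 and 3 in infant and 2, 3 and 4 in mature adult libraries. Hoxa2, Hoxa4, Hoxa7, Hoxa9, Hoxa10, Hoxb4, Hoxb5, Hoxb6, Hoxb7, Hoxb9 and Hoxb13 ranged from 0 to 5 peaks in single libraries. Hoxb2 and Hoxb5 were called higher in mature adult than in infant on scaled numbers without mature adult 1. Hoxb13, with 2, 2 and 1 peaks in infant, 0, 0 and 1 in young adult and 1, 1 and 1 in mature adult libraries, was called lower in young adult than in infant, and higher in mature than in young adult, without young adult 3. In the Hoxc and Hoxd clusters Hoxc4, Hoxc5, Hoxc6, Hoxc8, Hoxd1 and Hoxd4 had at most 1 peak in any library, and Hoxc10, Hoxd8 and Hoxd10 at most 3. Hoxd8 held 2, 3 and 0 in infant, 1, 1 and 1 in young adult and 0, 1 and 0 in mature adult libraries, and was called lower in mature adult without infant 3. Hoxb13 and Hoxd8 each averaged 1.0 peaks over the 9 libraries and reached the minimum for testing mainly through infant peaks. Their calls with a library left out therefore give no separate support. Hoxa6, Hoxc11, Hoxc12, Hoxc13 and Hoxd12 were given no peak in any library. Hoxa6 shows how the assignment works, since 2 infant libraries had a peak at its promoter window whose centre lay outside the gene. In all, 28 of the 39 genes had a peak in every infant library, 19 in every young adult and 18 in every mature adult library, and 16 in all 9 libraries, of which 8 are Hoxa, 7 Hoxb and 1 Hoxd genes. Of all 21887 protein-coding genes, 15574 had a peak in every infant, 14002 in every young adult and 13711 in every mature adult library, and 13273 in all 9.

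Positions with a peak in the clusters were compared between the libraries as well. Peaks of all libraries that overlapped were merged into 126896 regions, of which 108 touch a Hox window, 46 in Hoxa, 32 in Hoxb, 10 in Hoxc and 20 in Hoxd. A peak in all 9 libraries was found at 27 of the 108 (15 in Hoxa, 11 in Hoxb, none in Hoxc and 1 in Hoxd), 25.0% against 32.4% of all regions. A peak in all infant and no adult libraries was found at 7 of the 108, 6.48% against 9.7% of all regions. No region had a peak in all adult and no infant libraries, against 0.686% of all regions, although 3 regions had a peak in 1 adult library alone. A peak in at least 1 infant and no mature adult library was found at 53 of the 108, 49.1% against 35.4% of all regions, and these included 18 of 46 in Hoxa, 13 of 32 in Hoxb, 6 of 10 in Hoxc and 16 of 20 in Hoxd. Without infant 3 the regions in all infant and no adult libraries numbered 13, and with the same number of widest peaks in each list 1. Shares of all regions under these settings are not given, so these counts have no background.

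**Figure D4:**
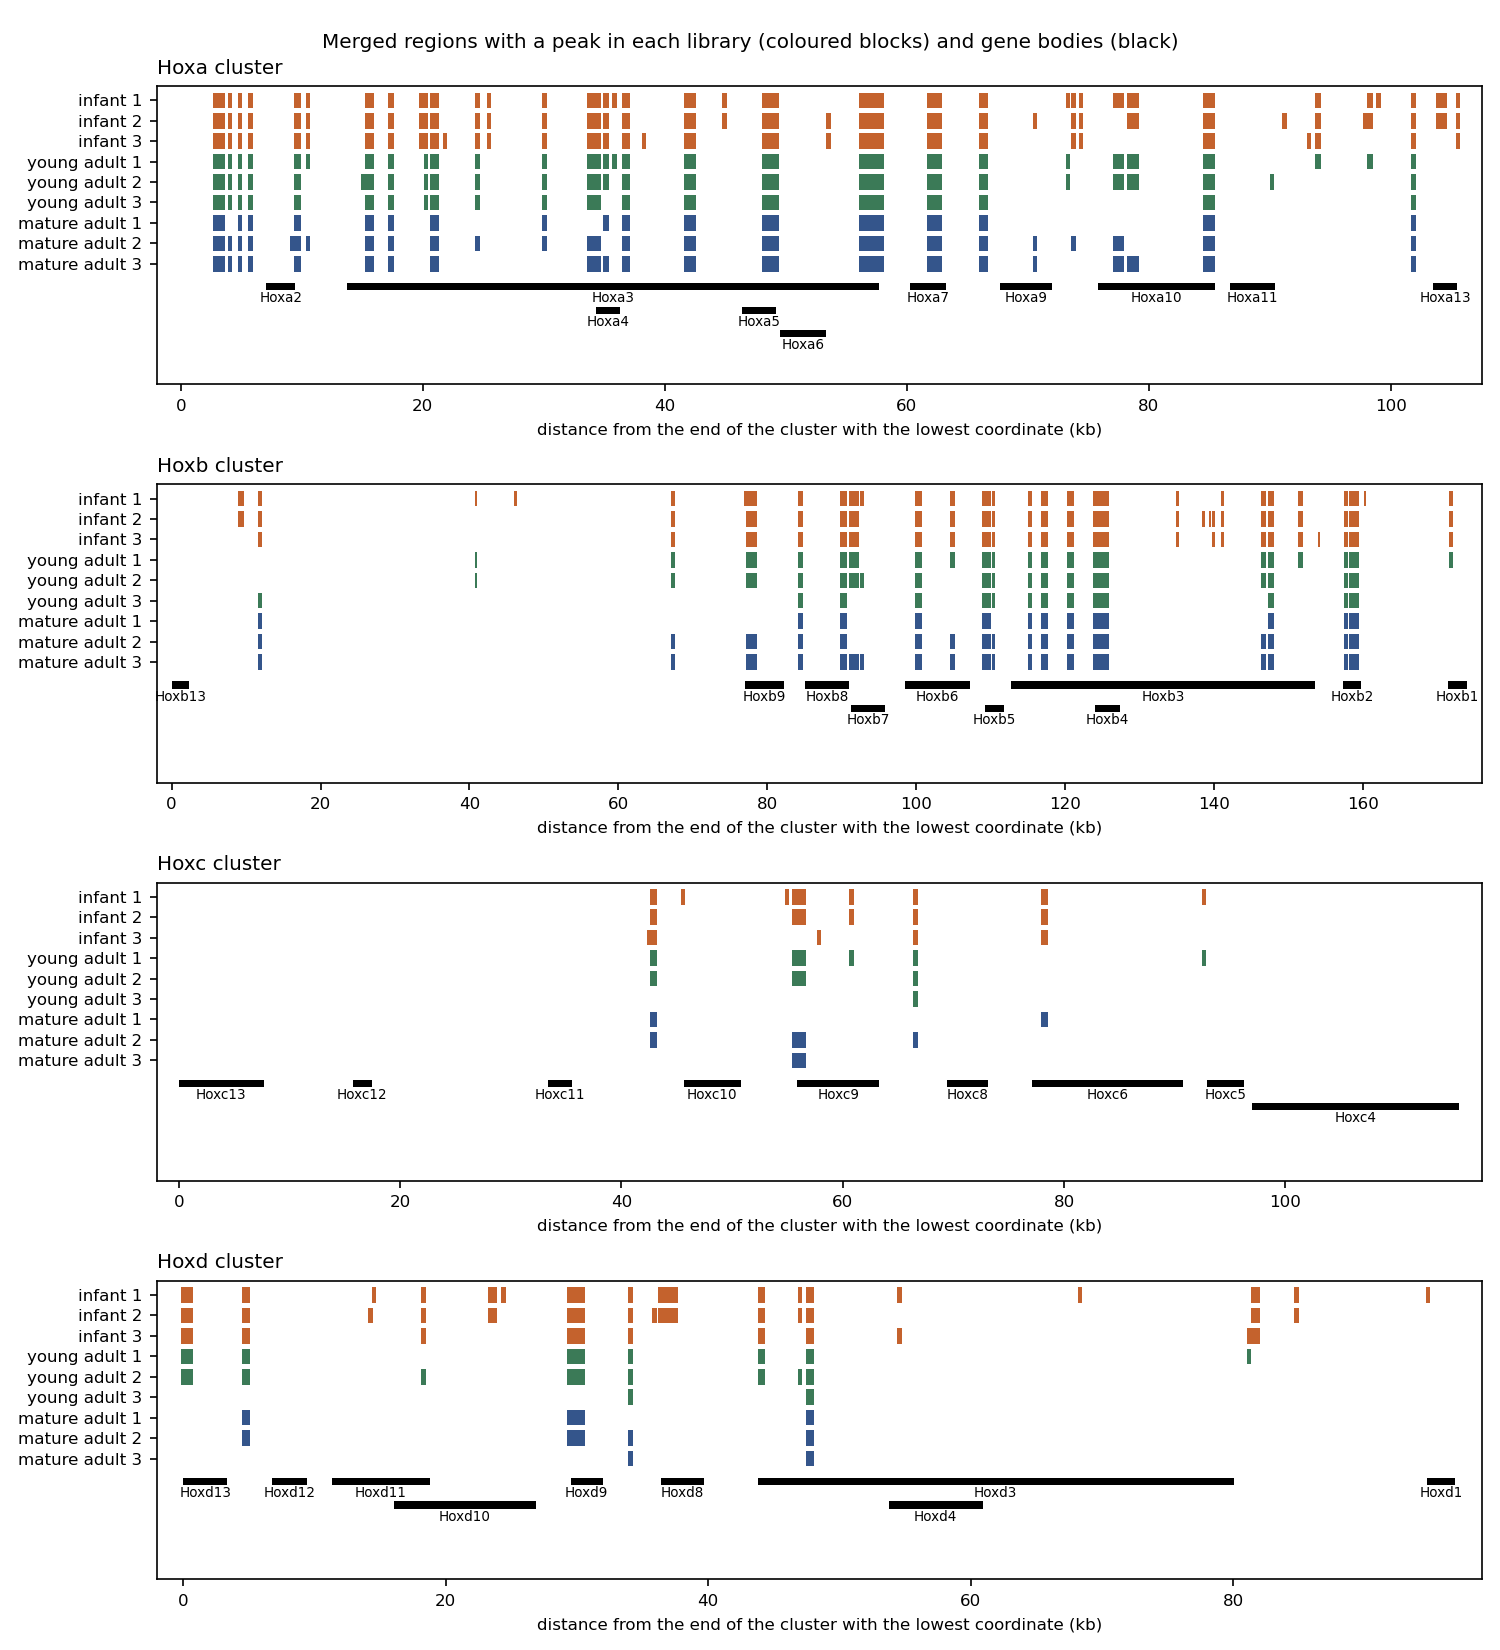
Merged regions along each Hox cluster (horizontal axis, kb from the end with the lowest coordinate) that hold a peak in each library (rows); a block spans the whole merged region, not the library's own peak, and black bars are bodies of the genes shown. In Hoxa and Hoxb the columns of blocks run through all ages at 15 and 11 regions, whereas in Hoxd 1 region runs through and most blocks are in the infant and young adult rows.

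The 27 regions with a peak in all libraries include 3 at posterior genes (Hoxa9, Hoxa10 and Hoxa13). In the Hoxb cluster the widest was at Hoxb4 (chr11:96318121-96320247), a gene known for its role in blood stem cells, with widths of 2056, 1528 and 1675 bp in infant, 1264, 1371 and 1147 in young adult and 643, 1620 and 585 in mature adult libraries. Mature adult 2 there stood among the infant libraries, while the other mature adult libraries were far narrower. The next was at Hoxb5 (chr11:96303106-96304409), at 1114 to 1298 bp in infant, 1073 to 1097 in young adult and 1091 to 1100 in mature adult libraries. In the Hoxa cluster, beside the Hoxa5 peak, the Hoxa3 start held such a region (chr6:52211417-52213485), at 844 to 947 bp in infant, 447 to 1920 in young adult and 653 to 956 in mature adult libraries. Over the 27 regions the median ratio of mature adult to infant width was 0.853, with 22 of 27 narrower in mature adult, against 0.874 and 79.7% narrower over the 41143 such regions of the genome. The regions in all infant and no adult libraries were small, with means of 177 to 402 bp in infant libraries. They lie in the Hoxa3 body (chr6:52180668-52181003 and chr6:52175077-52175289), at the Hoxa13 promoter (chr6:52260780-52261055), between Hoxa9 and Hoxa10 (chr6:52229575-52229774), in the Hoxb3 body (chr11:96335240-96335668 and chr11:96329177-96329630) and outside Hoxd3 as given above.

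The clusters also encode microRNAs, short RNAs that lower the output of matching messages, and the copies of 1 family lie at different distances from the peaks present at all ages. The mature sequences are shown because they share the seed (bases 2 to 8, in capitals), which sets the targets.
mmu-miR-10a-5p: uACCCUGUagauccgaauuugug
mmu-miR-10b-5p: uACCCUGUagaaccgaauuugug
Mir10a in the Hoxb cluster (hairpin at chr11:96317165-96317274) lies 847 bp from a region with a peak in all 9 libraries, the one at Hoxb4. Mir10b in the Hoxd cluster (hairpin at chr2:74726070-74726137) lies 3164 bp from the nearest region, which had a peak in 2 libraries, and 9768 bp from the nearest with a peak in all 9. No peak was found at either hairpin.

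Of the TALE homeodomain proteins that bind DNA with Hox proteins (PBX, MEIS and relatives), 10 of 11 were tested. In mature adult against infant 2 were called higher and 2 lower on scaled numbers, and none higher and 4 lower on unscaled numbers. Of all genes 30.4% were called higher and 13.9% lower on scaled, and 1.42% higher and 29.3% lower on unscaled numbers. Meis2 fell on both scales, from 28, 28 and 31 peaks in infant to 17, 18 and 13 in young adult and 14, 15 and 16 in mature adult libraries (scaled -0.39, limma adjusted p = 0.0329, unscaled -0.93, adjusted p = 0.00265). Meis1 held 31, 33 and 29 peaks in infant, 29, 33 and 36 in young adult and 29, 34 and 40 in mature adult libraries, and was called higher on scaled numbers (0.67, adjusted p = 0.00246) and not on unscaled ones (adjusted p = 0.520). Pbx2 had 1 peak in all libraries, so its scaled call has the origin described for Hoxa5.

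Among 38 regulators of the clusters (Polycomb and trithorax proteins, CDX factors, retinoic acid signalling, CTCF and cohesin), 36 were tested. Of these, 13 were called higher and 4 lower on scaled numbers in mature adult against infant, against 30.4% and 13.9% of all genes. On unscaled numbers 1 was called higher and 9 lower, against 1.42% and 29.3% of all genes. The 4 with the smallest adjusted p, Ash2l, Cbx2, Ring1 and Suz12, had exactly 1 peak in every library, so their scaled calls have the origin described for Hoxa5. Of 38 other homeobox genes, which lie outside the clusters, 26 were tested. On scaled numbers 1 was called higher and 6 lower, and on unscaled numbers none higher and 12 lower, to be read against the same shares of all genes. Gbx1, a hindbrain and spinal cord gene, held 2, 4 and 3 peaks in infant and none in any adult library (limma adjusted p = 0.000121 scaled). Mnx1, a motor neuron and pancreas gene, held 5, 4 and 2 in infant, 0, 1 and 0 in young adult and 0 in all mature adult libraries (adjusted p = 0.00250). Emx2 held 6, 8 and 5 in infant, 2, 2 and 2 in young adult and 2, 1 and 2 in mature adult libraries (adjusted p = 0.00600), and Dlx5 2, 3 and 2, then 1, 0 and 1, then none (adjusted p = 0.00430). Gbx1, Mnx1 and Dlx5 reached the minimum for testing mainly through their infant peaks. That minimum favoured their falls, and their p-values give no separate support. The median change of the 26 was -0.60 on scaled numbers, against -0.14 for the 25 Hox genes and 0.14 for all genes. These medians are also of genes that passed that minimum. Of 24 genes that flank the clusters, 22 were tested. On scaled numbers 5 were called higher and 3 lower, and on unscaled numbers none higher and 10 lower, with the same shares of all genes as the background. The 4 with the smallest adjusted p, Atp5g1, Hnrnpa1, Lnpk and Ube2z, also had 1 peak in every library, so their scaled calls have that origin too. In the 3 of these lists in which limma called no gene higher on unscaled numbers (the Hox partners, the other homeobox genes and the flanking genes), none was higher at an unadjusted p under 0.05 either.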

How the data were processed

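Only steps that bear on the Hox genes are given. The deposited files are peak lists, 1 per library, that per the file headers hold the chromosome, start and end of each peak and no other value. They were made by the authors on mm10 with cutadapt, Bowtie2 and Picard, per the submitters' processing notes. The caller of the peaks and its settings, a correction for the transposase offset and whether starts count from 0 or 1 were not given in the sources used here, so positions may be off by 1 bp. Between 31.5% and 39.5% of the rows repeated an interval (up to 14 rows for 1 interval), and each interval was counted once.

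Gene bodies came from a RefSeq table of GRCm38.p6, without exons, and promoter and microRNA sequences from RefSeq tables of the same assembly. A centre inside several genes went to the shortest. Of the distinct peaks, 90.5% to 93.6% lay within 100 kb of a gene. Peak numbers, scaled to the mean list length or unscaled, were tested as log2(number + 0.5), a scale that shrinks the changes of genes with small numbers, with limma 3.58.1 in R 4.3.3 (mean-variance trend, 9 libraries in 1 fit, Benjamini-Hochberg adjustment, threshold 0.05). The test was tried on simulated data. Genes with means as low as that of Hoxd3 (2.78 peaks) or of most other tested Hox genes were not changed there. That trial therefore does not show whether changes in such genes are found. Exact permutation, planned for Hox genes outside that fit, was replaced by a fit with no minimum. Regions were merged from peaks sharing at least 1 bp. Other steps used Python 3.11.15, numpy 2.4.6, pandas 2.3.3 and matplotlib 3.10.9.

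Named members were those called in any comparison on either scale, the member with most peaks in each cluster, and those with a region in all infant and no adult libraries at the promoter or body; in each related list the 4 genes with the smallest adjusted p for mature adult against infant; in each cluster the widest regions of a kind. Hoxd13, Hoxd9, Hoxa11, Hoxd11, Hoxb13, Hoxd8 and the miR-10 pair were added after their values were seen. The members and lists were chosen with earlier results of these data known. Some single genes are counted in all sums and are not reported here by themselves.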

Additional observations from a re-analysis of the deposited data

How the results depend on the processing

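Single named genes passed the threshold in 12 of the values recomputed under an alternative, lost it with the same sign or no change in 9 and lost it with the opposite sign in 2, while 157 kept their side. Without scaling the Hox genes called were 0 higher and 2 lower in young adult and 0 higher and 5 lower in mature adult against infant, in place of 2 and 0, and 2 and 1. Of all genes, 1.1% and 17.4%, and 1.42% and 29.3%, were called without scaling. With no minimum on the number, 3 were lower in mature adult, against 15.2% of all genes. With the same number of widest peaks in each list, 1 was higher in young adult and 0 were higher and 0 lower in mature adult against infant. The shares of all genes were 6.05%, 8.96% and 7.78%. The selection of widest peaks also left 1 region in all infant and no adult libraries, 1 in all adult and no infant libraries, and 1 promoter window with a peak in all infant and no mature adult libraries, which an overlap of at least 150 bp gave as well. Shares of all regions and promoter windows under these settings are not given. With repeated rows counted, 1 was higher in young adult and 1 in mature adult against infant, against 8.65% and 17.3% of all genes. Without young adult 3 and mature adult 1 together, 1 was lower in young adult, 4 were higher and 3 lower in mature adult against infant, and 1 was higher and 2 lower in mature against young adult. The shares of all genes were, in the same order, 10.5%, 31.5%, 15.7%, 1.02% and 2.89%. The ratio of infant to mature adult Hox peaks was 1.23 scaled and 1.12 with equal numbers, and that of infant to young adult 1.12 and 1.07. The cause of these moves was not tested beyond what each setting removes.

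Leaving out 1 library at a time gave 0 to 1 Hox genes lower and 2 to 3 higher in young adult, 1 to 3 lower and 2 to 4 higher in mature adult against infant, 0 to 1 in each direction between the adult ages, and 7 to 13 regions in all infant and no adult libraries. Of all genes, 6.7% to 10.1% were then lower and 24.4% to 27.5% higher in young adult against infant. For mature adult against infant these shares were 10.0% to 16.0% and 27.3% to 31.7%. Between the adult ages, 0.556% to 2.27% of all genes were lower and 0.139% to 0.699% higher in mature adult. The Hox calls there (Hoxb13 higher and Hoxd3 lower) came only without young adult 3, where both shares were at their highest. Shares of all regions with a library left out are not given. Hoxd3 stayed called in mature adult against infant without any single library (limma adjusted p = 0.000355 to 0.0377). Covered shares of the 4 clusters kept infant to mature adult ratios of 1.41 to 1.71 (Hoxa), 1.63 to 2.12 (Hoxb), 3.98 to 7.19 (Hoxc) and 5.87 to 8.32 (Hoxd). Of values past the threshold, those of Hoxb8 turned in sign, in mature adult with repeated rows (-0.41) and in young adult with equal numbers (-0.25). Hoxa3 in young adult, at 0.00 and not called, also took both signs (-0.10 without infant 1, 0.21 with equal numbers).

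Replicate numbers did not pair the libraries, since same-numbered libraries of different ages correlated between -0.171 and 0.169, and differently numbered ones between -0.229 and 0.289. The largest value was that of young adult 3 with mature adult 1, and its cause was not tested. A replicate block left the Hox calls at 2 higher and 1 lower in mature adult and 2 higher and 0 lower in young adult against infant (Hoxd3 limma adjusted p = 0.00921). Of all genes, 29.2% and 13.3%, and 25.3% and 8.81%, were called with that block. Depth is unknown, and no read-based limit can be given.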
